A study of Capra hircus with 4 samples.

Results

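Genes of lipolysis and fatty acid binding were followed in RNA-seq libraries of goat longissimus muscle, the long muscle of the back. The 10 listed genes were HSL, PNPLA2, LPL, PLIN1, CD36, FABP3, FABP4, FABP5, SCD and FASN, out of 11208 named goat genes in the deposited table. A gene was a member when the goat gene name paired with an assembled unigene was one of the listed names, and this found 6 of them (HSL, LPL, PLIN1, CD36, FABP5 and FASN, with 20 unigenes). The other 4 were present under another name: PNPLA2 as ATGL, FABP3 as H-FABP, SCD as SCD1, and FABP4 under a locus name whose protein is the adipocyte fatty acid-binding protein. All 10 are described here, from 24 unigenes in all, and the counts for the 6 matched by name alone are given beside them. All 10 passed the minimum of 10 counts over the libraries. Each of the 24 unigenes also had its best Swissprot protein match to the gene it was paired with, and no other unigene had such a match.

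The animals were cashmere goats aged 2 months, and 1 control library was compared with 3 libraries of goats given ractopamine by mouth at 1 mg/kg body weight. Ractopamine is a feed additive that activates beta-adrenergic receptors. Dosing lasted 28 days and was followed by 21 days without the drug. The study's methods place the sequencing at dosing day 21 and withdrawal days 3 and 21, each with corresponding controls. The labels give no day for a library and call the treated libraries replicates, so the libraries are treated library 1, 2 and 3 here and have no order. Neither source says how many animals a library holds, and the spread between the treated libraries may hold differences between days, animals or preparations, which cannot be told apart. With 1 control library, the spread of the control group was not measured.

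In fat cells, beta-adrenergic signalling starts the breakdown of stored triglyceride: PNPLA2 removes the first fatty acid, HSL the next, and PLIN1 on the lipid droplet holds both enzymes back until it is phosphorylated. Muscle takes up fatty acids that LPL frees from blood lipoproteins, CD36 carries them across the membrane, and small fatty acid binding proteins shuttle them through the cell. FABP3 is the form known from heart and skeletal muscle, FABP4 is the form of fat cells, which macrophages also make, and FABP5 is found in skin, fat, macrophages and endothelium. FASN and SCD belong to the building side, where FASN makes saturated fatty acids and SCD puts a double bond into them.

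The 3 lipases are unlike in overall sequence, but each has a serine in the short protein motif glycine, any residue, serine, any residue, glycine. The windows below, from the assembled unigenes and read on the coding strand 5′ to 3′, show the 45 bases around it, with the codons of the motif in capitals, so that the transcripts counted as lipases can be recognised.
HSL: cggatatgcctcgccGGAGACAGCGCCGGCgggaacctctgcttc
PNPLA2: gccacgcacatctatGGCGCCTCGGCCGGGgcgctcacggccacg
LPL: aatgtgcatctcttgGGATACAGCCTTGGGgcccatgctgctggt
HSL was assembled in 2 unigenes, and the window lies in the longer one. The LPL reading frame held 2 matches to the motif, of which the first is shown.

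The fatty acid binding proteins are close relatives, and whether their reads can be told apart bears on every value given for them. The first 90 bases of the reading frames of FABP3 and FABP5, the leading forms in the control and treated libraries, are given 5′ to 3′ with the start codon in capitals.
FABP3: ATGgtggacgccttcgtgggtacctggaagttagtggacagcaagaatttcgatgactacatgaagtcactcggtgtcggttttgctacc
FABP5: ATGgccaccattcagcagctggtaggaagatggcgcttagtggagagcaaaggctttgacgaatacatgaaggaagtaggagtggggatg
Over the coding bases FABP3 and FABP5 were 56.5% identical. The longest stretch of identical bases that their unigenes shared was 11 bases. The FABP3 frame of 133 residues was found by a search of the unigene and is not the frame predicted in the deposited annotation.

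The expected counts of a gene, which are the authors' estimates of its fragments, were summed over its unigenes and set against all counts of named goat genes in that library. Where 4 values follow each other below, they are those of the control library first and then of treated libraries 1, 2 and 3, and 3 values are those of the treated libraries. The named-gene counts came to 6086312, 3991046, 133809 and 2697657, which were 71.3%, 50.1%, 1.82% and 40.4% of all expected counts. The rest of the goat-paired counts belonged to 25 unigenes with no gene name, nearly all with a mitochondrial nucleotide match. These unigenes took 23.8% of the paired counts in the control library and 97.9% in treated library 2. Treated library 2 was therefore shallow for every gene described here, where 3 counts equal 22.4 CPM (counts per 1000000 counts of named genes), against 0.493 CPM in the control library. Its direction for a gene also depends on whether the unnamed unigenes are in the denominator. Of the skeletal muscle markers, 7 of 12 were found under their names and summed to between 88800 and 154000 CPM in the 4 libraries, led by the muscle creatine kinase CKM. The alpha skeletal actin ACTA1 held only 130, 6, 0 and 3 counts. It belongs to a family of near-identical actins, and an assignment of its reads to the others was not tested. In the edgeR test given below, ACTA1 was the only 1 of these 7 markers to pass, as lower (edgeR adjusted p = 0.00282, kept in 3 of 6 alternatives). Of all genes tested, 2.22% passed as lower.

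The x-fold is the level in a treated library divided by the level in the control library, and limits of 3 and 0.6 mark it as higher or lower. Its 95% interval is exact (Clopper-Pearson) and covers counting error only, not the spread between goats. In treated library 1, 4 of the 10 genes lay above the upper limit (LPL, FABP4, FABP5 and SCD), against 5.86% of the 9470 genes tested. Another 4 lay below the lower limit (HSL, PNPLA2, FABP3 and CD36), where 39.7% of all genes lay. In treated library 2, 6 genes were higher (LPL, FABP4, FABP5, PLIN1, SCD and FASN; all genes 13.0%) and 1 was lower (FABP3; all genes 52.0%), but with all goat-paired counts as the denominator 0 were higher and 7 lower. On that scale the split over all genes in treated library 2 moved from 1232 higher and 4922 lower to 14 higher and 9339 lower. In treated library 3, 0 genes were higher (all genes 3.33%) and 4 were lower (HSL, PNPLA2, FABP3 and FASN; all genes 40.1%), and this lower count too changed to 7 with all goat-paired counts. On that scale 105 higher and 6712 lower were found over all 9470 genes in treated library 3. In treated library 1 these numbers were 350 and 5177. The 6 genes matched by name alone gave 2 higher and 2 lower, 4 higher and 0 lower, and 0 higher and 2 lower in treated libraries 1, 2 and 3. The median x-fold of all genes was 0.736, 0.550 and 0.712, and with 0.5 counts added to every gene that of treated library 2 was 1.09, so values set against the median there depend on the genes at 0. The 4 lower genes in treated libraries 1 and 3 were a share near this background. The paper chose HSL and FABP5 from its RNA-seq with the limits 3 and 0.6 among its criteria. The counts of members outside the limits were thus partly settled by that choice.

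**Figure D1:**
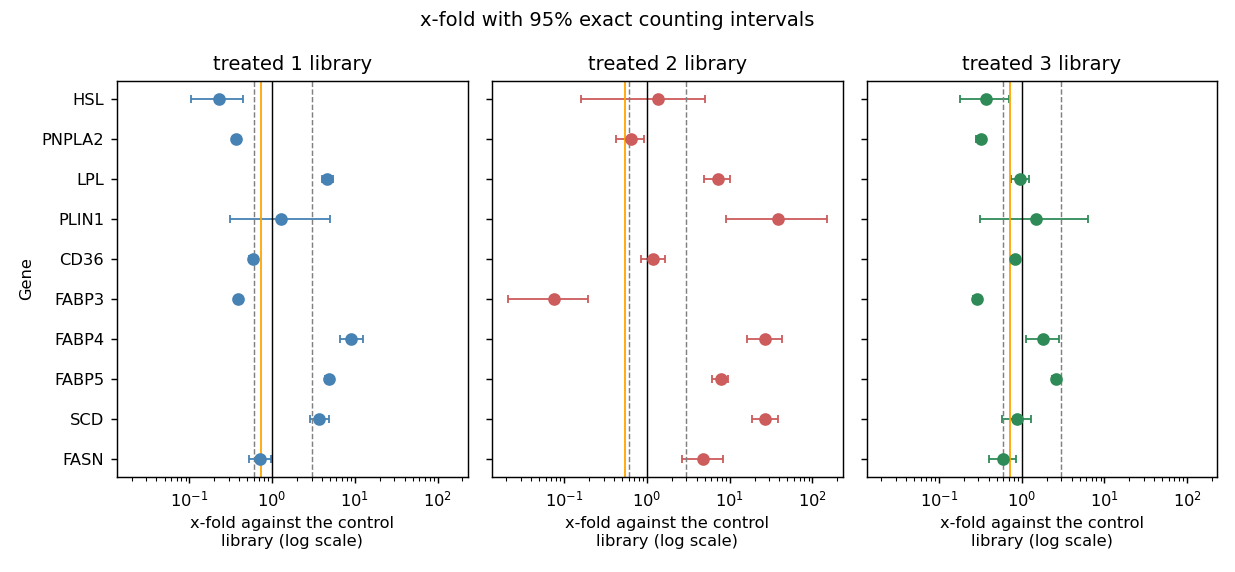
x-fold of the 10 genes in each treated library against the control library, on a log axis, with 95% exact counting intervals. The dashed lines are the limits 0.6 and 3, the black line is no difference and the orange line is the median of all 9470 genes; FABP4, FABP5 and LPL lie right of the upper limit in treated libraries 1 and 2, and FABP3 lies left of the lower limit in all 3, while in treated library 2 the higher values turn below 1 when all expected counts are the denominator.

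The intracellular lipases PNPLA2 and HSL had lower levels in treated libraries 1 and 3 than in the control library. PNPLA2 had 1980, 482, 28 and 280 counts, which are levels of 325, 121, 209 and 104 CPM. The control library was the highest of the 4, and treated libraries 1 and 3 were close to each other. Their x-folds were 0.371 (0.335 to 0.410) and 0.319 (0.281 to 0.362), and treated library 2 was at 0.643 (0.426 to 0.933). With all goat-paired counts as the denominator the x-folds were 0.279, 0.0179 and 0.188, so treated library 2 was then the lowest. Divided by the median x-fold of all genes, the PNPLA2 values were 0.504, 1.17 and 0.448.

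HSL was a rare transcript, with 67, 10, 2 and 11 counts. Its levels were 11.0, 2.51, 14.9 and 4.08 CPM. The x-fold was 0.228 (0.104 to 0.445) in treated library 1 and 0.370 (0.177 to 0.706) in treated library 3. The value of treated library 2, 1.36 (0.161 to 5.10), rests on 2 counts, spans a several-fold fall and a several-fold rise, and became 0.0377 with all goat-paired counts as the denominator. The values of the 2 HSL unigenes were unlike: the longer had 49, 4, 1 and 5 counts and the shorter 18, 6, 1 and 6. From the unigene with the highest mean FPKM alone, the HSL x-folds were 0.508, 2.53 and 0.752, and the last is no longer below the lower limit.

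The balance of both enzymes was read within each library, which needs no scaling between libraries. HSL made up 3.27% (2.55 to 4.14) of the summed HSL and PNPLA2 counts in the control library. The shares in the treated libraries were 2.03% (0.979 to 3.71), 6.67% (0.818 to 22.1) and 3.78% (1.90 to 6.66), with exact binomial intervals that all overlapped that of the control library. A difference in the balance was thus not detectable at this depth.

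LPL, which works outside the cell on lipoproteins in the capillaries, went another way. It had 223, 674, 35 and 94 counts, or 36.6, 169, 262 and 34.8 CPM. On this scale treated libraries 1 and 2 stood apart from the other pair, and the x-fold interval of treated library 3 held 1. The x-folds were 4.61 (3.96 to 5.39), 7.14 (4.85 to 10.2) and 0.951 (0.739 to 1.22), and with all goat-paired counts as the denominator they were 3.46, 0.198 and 0.559, the latter pair below the lower limit. Treated library 1 was 4.85 times (3.90 to 6.08) as high as treated library 3, so the treated libraries differed from each other as much as treated library 1 differed from the control library.

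PLIN1, the perilipin of large lipid droplets in fat cells, was close to the limit of detection. It had 6, 5, 5 and 4 counts. The x-folds of treated libraries 1 and 3, 1.27 (0.307 to 5.00) and 1.50 (0.312 to 6.34), leave the direction unknown. In treated library 2 the same handful of counts gave 37.9 (9.15 to 149), because the library had so few counts of named genes, and the value was 0.969 with all expected counts as the denominator.

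CD36 is the fatty acid transporter of the list. It had 1435, 549, 38 and 533 counts, or 236, 138, 284 and 198 CPM. The x-fold was 0.583 (0.528 to 0.644) in treated library 1, just under the lower limit, and then 1.20 (0.849 to 1.66) and 0.838 (0.757 to 0.926), and with all goat-paired counts as the denominator the values were 0.438, 0.0335 and 0.493. Divided by the median x-fold of all genes, the named-gene values were 0.792, 2.18 and 1.18.

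Among the fatty acid binding proteins, FABP3 lay below and FABP5 above the control library in each treated library on the named-gene scale, and FABP5 turned in treated library 2 on wider denominators. FABP3 had 2394, 616, 4 and 306 counts, or 393, 154, 29.9 and 113 CPM. The control library was above every treated library, with intervals that did not overlap. The x-folds were 0.392 (0.359 to 0.429), 0.0760 (0.0207 to 0.195) and 0.288 (0.255 to 0.325).

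FABP5 had 562, 1774, 96 and 650 counts, or 92.3, 444, 717 and 241 CPM. Every treated library lay above the control library on this scale, without overlap of the intervals. The x-folds were 4.81 (4.38 to 5.30), 7.77 (6.19 to 9.66) and 2.61 (2.33 to 2.93), of which the value of treated library 2 turned to 0.216 and that of treated library 3 moved to 1.53 with all goat-paired counts as the denominator.

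FABP4 had 48, 283, 28 and 38 counts, or 7.89, 70.9, 209 and 14.1 CPM. Treated libraries 1 and 2 were far above the control library, and the counting interval of the level in treated library 3 overlapped that of the control library. The x-folds were 8.99 (6.60 to 12.5), 26.5 (16.0 to 43.2) and 1.79 (1.14 to 2.79), and the last pair became 0.737 and 1.05 with all goat-paired counts as the denominator.

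Since the 3 genes were counted in the same library, their shares of the summed FABP3, FABP4 and FABP5 counts do not depend on the denominator. In the control library FABP3 made up 79.7% (78.2 to 81.1) of these counts, against 23.0% (21.5 to 24.7), 3.12% (0.858 to 7.81) and 30.8% (27.9 to 33.8) in the treated libraries. The FABP5 share was 18.7% (17.3 to 20.1) in the control library and reached 66.4% (64.5 to 68.2), 75.0% (66.6 to 82.2) and 65.4% (62.3 to 68.4). FABP4 was the least of them in the control library at 1.60% (1.18 to 2.11), and reached 10.6% (9.45 to 11.8), 21.9% (15.1 to 30.0) and 3.82% (2.72 to 5.21). The leading form was therefore FABP3 in the control library and FABP5 in each treated library, and none of the intervals of the control library overlapped those of a treated library. The summed counts behind the shares were 3004, 2673, 128 and 994. In bulk tissue, fewer cells of a type and less RNA per cell cannot be told apart, and with 1 control library the share in other control goats was not measured.

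**Figure D2:**
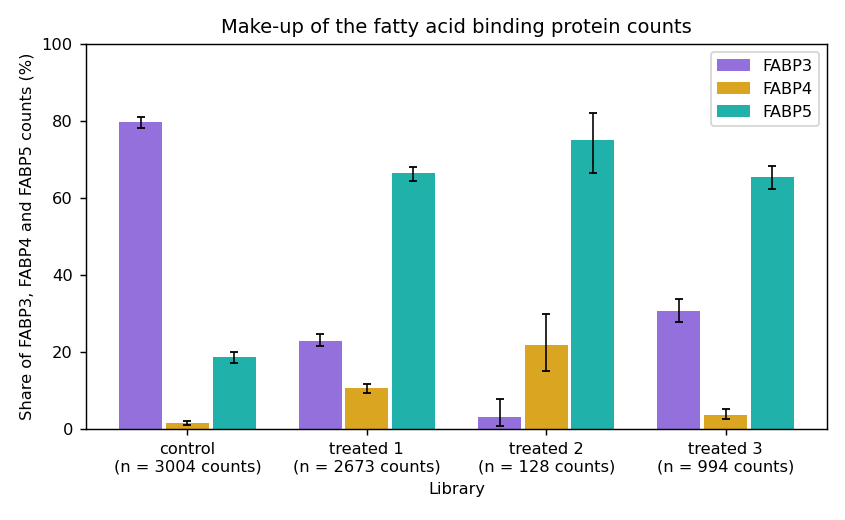
Share of FABP3, FABP4 and FABP5 in their summed counts (%) in each library, with exact 95% binomial intervals as error bars and the number of counts under each library. FABP3 leads in the control library at 79.7%, and FABP5 leads in each treated library at 65.4 to 75.0%.

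SCD and FASN, both on the building side, were both above the upper limit in treated library 2 on the named-gene scale. In treated library 1 SCD lay above that limit and FASN below the control library. SCD had 90, 220, 53 and 35 counts, or 14.8, 55.1, 396 and 13.0 CPM. Like LPL on this scale, it was high in treated libraries 1 and 2, while the x-fold interval of treated library 3 held 1. The x-folds were 3.73 (2.90 to 4.82), 26.8 (18.7 to 38.0) and 0.877 (0.576 to 1.31), and with all goat-paired counts as the denominator they were 2.80, 0.744 and 0.516, the last below the lower limit.

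FASN had 142, 67, 15 and 37 counts, or 23.3, 16.8, 112 and 13.7 CPM. The x-folds were 0.720 (0.530 to 0.969), 4.80 (2.62 to 8.20) and 0.588 (0.398 to 0.849), with 0.133 for treated library 2 when all goat-paired counts were the denominator. FASN was assembled in 13 pieces, and its values depended on which of them were counted. The longest unigene had 80, 62, 13 and 30 counts, with x-folds of 1.18 (0.834 to 1.67), 7.39 (3.77 to 13.4) and 0.846 (0.537 to 1.30). The other 12 had 62, 5, 2 and 7 counts together, with x-folds of 0.123 (0.0386 to 0.303), 1.47 (0.174 to 5.53) and 0.255 (0.0983 to 0.557). The lower values of FASN in treated libraries 1 and 3 thus came from the short pieces.

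For comparison between genes, levels were also divided by the transcript length and are then CPM per kb. In the control library the order was FABP3 (185), PNPLA2 (139), CD36 (80.3), FABP5 (49.5) and LPL (10.1), with no overlap of the counting intervals between neighbours. FABP4 (6.03), HSL (4.62), FASN (3.05) and SCD (2.85) followed, each overlapping the next, and PLIN1 (0.715) was last. In the treated libraries FABP5 was at the top, with 238, 384 and 129 CPM per kb. Second place was held by FABP3 in treated library 1 (72.7), FABP4 in treated library 2 (160) and CD36 in treated library 3 (67.3). In treated library 1, FABP4 (54.3), PNPLA2 (51.4), CD36 (46.9) and LPL (46.6) were neighbours whose intervals overlapped, and in treated library 2 every neighbour from second place down overlapped the next.

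**Figure D3:**
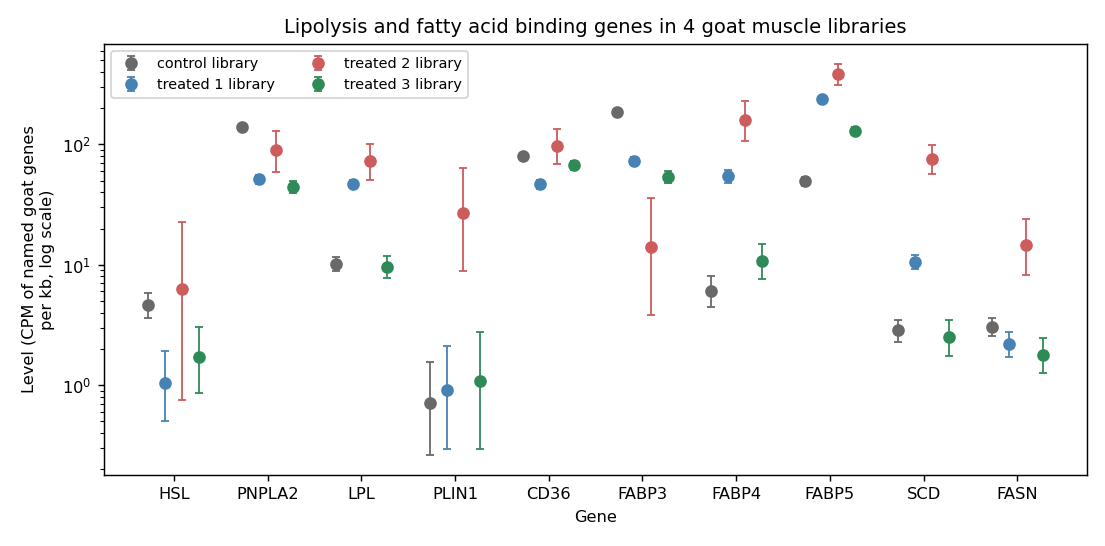
Level of each gene in the 4 libraries as CPM per kb of transcript, on a log axis, with exact 95% counting intervals. FABP3 and PNPLA2 lead in the control library at 185 and 139, and FABP5 leads in the treated libraries at 129 to 384; the wide intervals of treated library 2 reflect its 133809 named-gene counts, and its position above the control library for LPL, FABP4, FABP5, SCD and FASN turns when all goat-paired counts are the denominator.

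A test across the libraries was made with edgeR's quasi-likelihood model, in which the lone control library is assumed to vary like the 3 treated libraries. At an adjusted p under 0.05 (Benjamini-Hochberg over 9470 genes), 1 of the 10 genes passed, where 0.581% of all genes passed as higher and 2.22% as lower. This gene was FABP4, with a log2 difference of 3.46 and an edgeR adjusted p of 0.0185. FABP4 lay above the upper limit in treated libraries 1 and 2 on the named-gene scale. With all goat-paired counts this held in treated library 1 only. In treated library 3 the FABP4 x-fold was within the limits at 1.79, or 1.05 with all goat-paired counts. Over 7 alternatives its adjusted p ranged from 0.0248 to 0.959, and 5 of them lost the call. Without treated library 1, 2 or 3 the edgeR adjusted p was 0.231, 0.296 and 0.0885. The next genes by adjusted p were FABP3 at a log2 difference of -1.91 (edgeR adjusted p = 0.125), FABP5 at 2.33 (0.155), SCD at 3.24 (0.176) and LPL at 2.02 (0.199). None of these passed. HSL at -1.48 (edgeR adjusted p = 0.404), PNPLA2 at -1.21 (0.436), PLIN1 at 1.84 (0.475), FASN at 0.59 (0.789) and CD36 at -0.21 (0.937) did not pass either. Without treated library 2 the log2 difference of FASN was -0.61, and without treated library 1 that of CD36 was 0.02. Before adjustment, 5 of the 10 genes had p under 0.05, where 16.1% of all genes did. The median log2 difference of all genes tested was -0.39.

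FABP4 is a gene of fat cells, and some adipocyte markers were high in the same libraries. ADIPOQ, the hormone adiponectin, had 75, 403, 99 and 64 counts. Its x-folds of 8.19 (6.39 to 10.6), 60.0 (44.0 to 82.2) and 1.93 (1.36 to 2.72) were highest in treated library 2, as were those of FABP4, LPL and SCD. With all goat-paired counts as the denominator all 4 genes were highest in treated library 1, where ADIPOQ was at 6.15, 1.67 and 1.13 over the treated libraries. CIDEC, a lipid droplet protein, had 9, 34, 11 and 9 counts, and THRSP, a lipogenic nuclear protein, had 1, 19, 9 and 6. These 3 markers were singled out after their values were seen. PLIN4 was below the control library in every treated library, with x-folds of 0.353 (0.303 to 0.409), 0.0489 (0.00124 to 0.273) and 0.614 (0.532 to 0.706), and it is also made by muscle fibres.

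Over the whole adipocyte list, 8 of 12 markers were found by name and 7 had enough counts. Above the upper limit lay 4, 5 and 1 of these in treated libraries 1, 2 and 3, and 2, 1 and 1 lay below the lower limit. Over all genes 5.86%, 13.0% and 3.33% lay above and 39.7%, 52.0% and 40.1% below. With all goat-paired counts as the denominator, 4, 1 and 1 were higher and 2, 4 and 2 lower. On that scale 350, 14 and 105 of all 9470 genes were higher and 5177, 9339 and 6712 lower. The summed level was 271, 584, 1010 and 259 CPM, and PCK1 was at 0 in the control library and treated library 2. Single genes weighed heavily in the sum: PLIN4 held 930 of 1647 counts in the control library, and CEBPA 1638 of 2331 in treated library 1. The x-folds were 4.31, 0.707 and 1.38 for CEBPA, 0.484, 3.33 and 0.330 for CFD, and 1.02, 11.4 and 1.32 for CIDEA. The sum is thus no level of fat cells alone. ADIPOQ and THRSP passed the edgeR test as higher (adjusted p = 0.0497 and 0.0137), where 0.581% of all genes did. ADIPOQ kept the call in 1 of 7 alternatives and THRSP in 2 of 6. The part of fat cells in the values of FABP4, LPL, SCD and FABP5 was not tested.

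**Figure D4:**
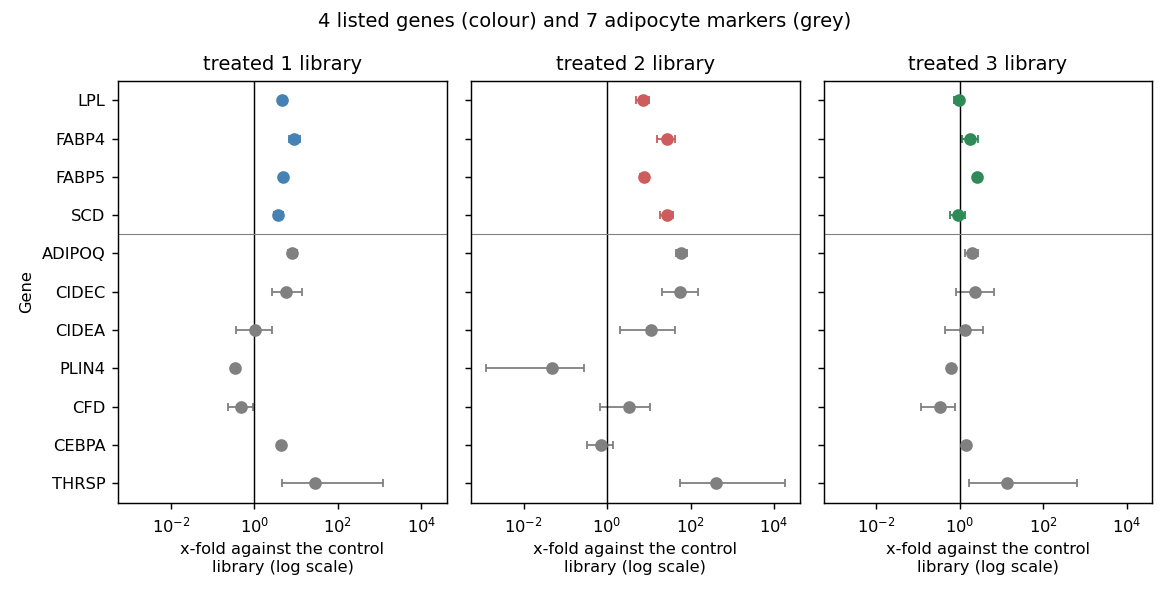
x-fold against the control library (log axis, 95% exact counting intervals) of LPL, FABP4, FABP5 and SCD in colour and of the 7 adipocyte markers tested in grey, 1 panel for each treated library. ADIPOQ lies at 8.19, 60.0 and 1.93 and PLIN4 left of 1 in all 3; in treated library 2 the values of the coloured genes turn below 1 with all expected counts as the denominator, and ADIPOQ is at 1.67 with all goat-paired counts.

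Other cells of muscle can carry some of these transcripts as well. Endothelial markers, of which 9 of 10 were found, summed to 370, 323, 1200 and 528 CPM. Above the upper limit lay 1, 6 and 0 of them (all genes 5.86%, 13.0% and 3.33%) and below the lower limit 1, 0 and 0 (all genes 39.7%, 52.0% and 40.1%). With all goat-paired counts 0 were higher in any library and 3, 9 and 0 lower, where 5177, 9339 and 6712 of all 9470 genes were lower. Macrophage markers, of which 8 of 10 were found and 6 tested, summed to 3.94, 26.1, 29.9 and 6.67 CPM from only 24, 104, 4 and 18 counts. The complement gene C1QA held 0, 18, 0 and 3 of these and passed the edgeR test as higher (adjusted p = 0.0355; 0.0367 to 0.959 over 6 alternatives, of which 1 kept the call), where 0.581% of all genes passed as higher. Their part in the FABP4, FABP5 and LPL values was not tested.

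The other lipolysis genes were a list of 15, of which 12 were tested. Above the upper limit lay 2, 4 and 0 of them and below the lower limit 5, 4 and 6, where 5.86%, 13.0% and 3.33% of all genes lay above and 39.7%, 52.0% and 40.1% below. When all goat-paired counts were used these became 1, 0 and 0 higher and 7, 11 and 9 lower. Over all 9470 genes 350, 14 and 105 were then higher and 5177, 9339 and 6712 lower. On the named-gene scale the median x-folds were 0.689, 0.685 and 0.594, against 0.736, 0.550 and 0.712 over all genes. By edgeR, 0 of the 12 passed, with 3 at an unadjusted p under 0.05, and by DESeq2 also 0 passed. MGLL, which frees the last fatty acid from a monoglyceride, had 1467 counts in the control library and x-folds of 0.352 (0.312 to 0.397), 0.744 (0.475 to 1.11) and 0.674 (0.604 to 0.750). PLIN5, the perilipin of oxidative muscle, was at 0.336 (0.270 to 0.416), 0.281 (0.0578 to 0.827) and 0.391 (0.306 to 0.493). DAGLB, a diglyceride lipase, had the highest x-fold in treated library 1 among genes with at least 50 control counts, at 1.05 (0.678 to 1.62).

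Of the genes for fatty acid uptake and activation, 11 of 15 were tested, and 0, 3 and 2 were higher and 3, 4 and 3 lower, against 5.86%, 13.0% and 3.33% higher and 39.7%, 52.0% and 40.1% lower over all genes. On the scale of all goat-paired counts 0 were higher in any library and 6, 11 and 6 lower, where 5177, 9339 and 6712 of all 9470 genes were lower. The medians on the named-gene scale were 0.766, 0.743 and 0.943. ACSL4, an acyl-CoA synthetase with a liking for arachidonic acid, had 412, 16, 4 and 28 counts. It passed the edgeR test with a log2 difference of -2.82 (adjusted p = 0.0204; 0.0219 to 0.959 over 6 alternatives, of which 2 kept the call), and it was the only gene of this list to do so. Over all genes 2.22% passed as lower. ACSL1, the main acyl-CoA synthetase of muscle and fat, had x-folds of 0.278 (0.241 to 0.319), 0.207 (0.0759 to 0.452) and 0.319 (0.272 to 0.372), and its edgeR adjusted p was 0.127. CAV1, the coat protein of caveolae, was at 1.35 (1.19 to 1.52), 3.33 (2.38 to 4.56) and 1.19 (1.03 to 1.37), or 1.01, 0.0926 and 0.699 with all goat-paired counts. DBI, which binds acyl-CoA, was at 1.69 (1.34 to 2.12), 3.05 (1.43 to 5.77) and 1.47 (1.13 to 1.91), or 1.27, 0.0848 and 0.864 with all goat-paired counts.

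Of the fatty acid and triglyceride synthesis genes, 18 of 23 were tested. Higher were 1, 3 and 1 of them (all genes 5.86%, 13.0% and 3.33%) and lower were 7, 8 and 8 (all genes 39.7%, 52.0% and 40.1%), with medians of 0.914, 1.12 and 0.632, and 0 passed by edgeR (4 at an unadjusted p under 0.05) or DESeq2. With all goat-paired counts 1, 0 and 0 were higher and 8, 18 and 16 lower. Of all 9470 genes, 350, 14 and 105 were then higher and 5177, 9339 and 6712 lower. ACACB, whose malonyl-CoA holds back fatty acid entry into mitochondria, had 2323 counts in the control library and x-folds of 0.173 (0.152 to 0.197), 0.490 (0.316 to 0.724) and 0.157 (0.133 to 0.185). LPIN1, a phosphatidate phosphatase, was above the control library in treated library 1 at 1.65 (1.53 to 1.78) and below it in the others at 0.0699 (0.00845 to 0.253) and 0.468 (0.409 to 0.534). DGAT2, which makes the final step to triglyceride, was at 2.12 (1.66 to 2.71), 9.80 (6.09 to 15.2) and 0.972 (0.684 to 1.37), or 1.59, 0.272 and 0.572 with all goat-paired counts. ACLY, which supplies cytosolic acetyl-CoA, had 56, 3, 2 and 12 counts.

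The genes that burn fatty acids in mitochondria had the lowest medians of the 4 lists. Of 18 genes 16 were tested, and 12, 12 and 10 lay below the lower limit in treated libraries 1, 2 and 3, with 0 above the upper limit. Over all genes 39.7%, 52.0% and 40.1% lay below it. The medians of the list were 0.359, 0.302 and 0.481, and 13, 16 and 14 were lower with all goat-paired counts as the denominator. On that scale 5177, 9339 and 6712 of all 9470 genes were lower. HADHA, the large subunit of the trifunctional protein, had 7844 counts in the control library and x-folds of 0.161 (0.150 to 0.173), 0.128 (0.0799 to 0.193) and 0.284 (0.266 to 0.304), with an edgeR adjusted p of 0.0521. ACADVL, the very long chain dehydrogenase, was at 0.336 (0.311 to 0.361), 0.345 (0.232 to 0.493) and 0.415 (0.383 to 0.449). DECR1, needed for unsaturated chains, was at 1.18 (1.02 to 1.37), 0.224 (0.0270 to 0.813) and 0.726 (0.592 to 0.886).

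The edgeR test called 2 of these 16, both lower, where 2.22% of all genes were called lower. Both are named because of the call. CPT1B, the muscle carnitine palmitoyltransferase that admits long chains to mitochondria, had 1408, 224, 2 and 117 counts, a log2 difference of -2.46 (edgeR adjusted p = 0.0241; 0.0326 to 0.959 over 7 alternatives, of which 1 kept the call). ACADL, a dehydrogenase of long chains, had 230, 25, 0 and 15 counts, a log2 difference of -2.77 (edgeR adjusted p = 0.0229; 0.0290 to 0.959 over 6 alternatives, of which 2 kept it).

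**Figure D5:**
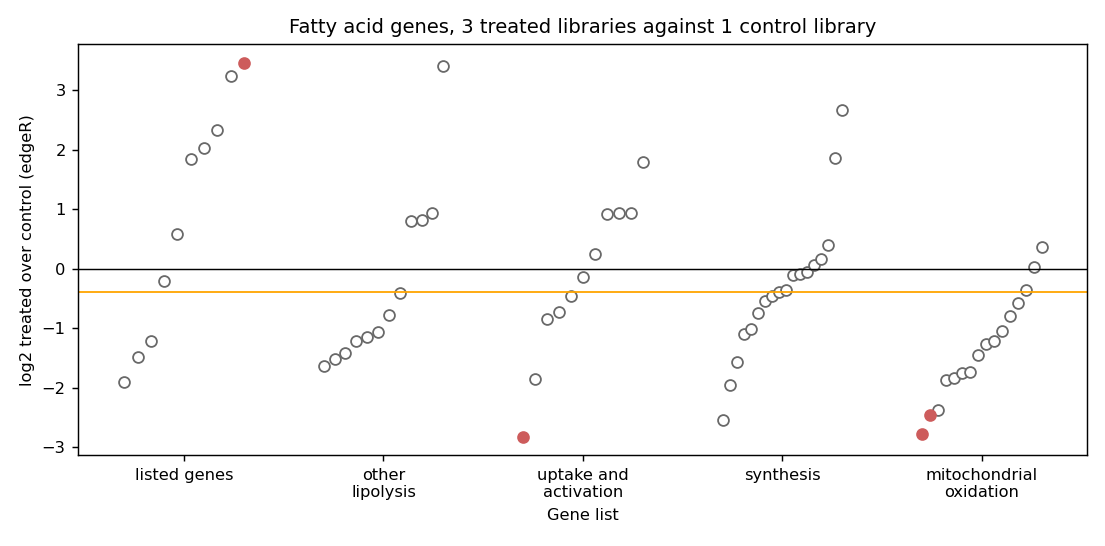
log2 difference between 3 treated libraries and 1 control library from edgeR for the 10 listed genes and the tested genes of the 4 other lists, 1 point a gene, sorted within a list. Filled points passed at an adjusted p under 0.05 (FABP4 higher; ACSL4, CPT1B and ACADL lower), the orange line is the median of all genes at -0.39, and with all expected counts as library sizes 0 genes passed.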

How the data were processed

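Libraries were made from total RNA of the muscle and sequenced on an Illumina HiSeq instrument, and reads were assembled into 59774 unigenes. The quality tool named in the submitters' processing notes is FastQC 0.10.1. The selection of RNA, the assembler and the counting tool are not given in the sources used here. The authors deposited expected counts per unigene, all whole numbers, with FPKM and TPM (not used for the main values). A deposited table pairs 21220 unigenes with goat genes and lists how similar the proteins were, as percent identity. The 25 paired unigenes without a gene name were left out of library sizes and tests, and their shares are in the report. Neither transcript tables nor interval tables were used.

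Expected counts were summed per gene (21195 unigenes). The x-fold limits, 3 and 0.6, are those of the paper. Genes with at least 10 counts over 4 libraries were tested with edgeR 4.0.16 (quasi-likelihood, robust, library sizes as named-gene counts, Benjamini-Hochberg) in R 4.3.3, after a check on simulated counts. The simulated libraries varied less than the real ones, whose biological coefficient of variation in edgeR was 0.477. The check therefore does not give the error rate of the test on these data. DESeq2 1.42.0 was an alternative. Intervals (scipy 1.17.1) cover counting error only. The number of goats in a library is not given, and the treated libraries may come from different days. The p-values therefore set the difference from the control library against the spread of the treated libraries, which the control library is assumed to share. The design had named the goat-paired counts as denominator; excluding unnamed unigenes was decided after the files were seen, and the wider denominator is given as an alternative. Sequences came from the deposited unigenes. 1 sequence and what was computed from it are not reported here. The members and lists were chosen with earlier results of these data known. Named genes were the 10 members, GAPDH, and per list the 2 with most control counts and the highest and lowest x-fold in treated library 1 among genes with at least 50 control counts.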

Additional observations from a re-analysis of the deposited data

How the results depend on the processing

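The scaling decided most. For treated library 2, x-folds above 1 turned below 1 for LPL, FABP4, FABP5, PLIN1, SCD and FASN with all expected counts (0.182, 0.678, 0.199, 0.969, 0.685 and 0.123) and with the deposited FPKM (0.194, 0.686, 0.201, 0.613, 0.701 and 0.0354). HSL and CD36, within the limits at 1.36 and 1.20, were also below 1 with all expected counts (0.0347 and 0.0308). All goat-paired counts were the denominator named in the design, and the named-gene scale was decided after the files were seen. With all goat-paired counts, LPL, FABP4, FABP5, SCD and FASN gave 0.198, 0.737, 0.216, 0.744 and 0.133. Over all genes, the higher and lower calls of treated library 2 went from 1232 and 4922 to 13 and 9369 with all expected counts and to 1802 and 2706 with 0.5 counts added, and those of treated library 3 from 315 and 3793 to 99 and 6872. The members outside the limits in treated library 3 became 7 with all expected counts, GAPDH as reference (GAPDH x-fold 0.912, 1.72 and 1.72), deposited FPKM and all goat-paired counts. All 7 were lower, where 6872, 6774, 6903 and 6712 of all 9470 genes were lower with these settings. Under their listed names alone, a choice made after seeing the data, the members outside the limits were 4, 4 and 2 in treated libraries 1, 2 and 3. Of 300 alternative x-folds of single genes, 186 moved by less than the counting interval, 97 moved further and 17 turned the direction of a called value. The 186 include alternatives that could hardly change a value, so they are no measure of stability. These were leaving out mitochondrially encoded genes, a protein identity of at least 80%, and the highest unigene for genes with 1 unigene.

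edgeR called 1 member and 265 genes. Members called were 0 with DESeq2 (5 with unadjusted p under 0.05), 0 with all expected counts as library sizes (added later, 0 with unadjusted p under 0.05) and 0 without each treated library in turn (4 or 5 with unadjusted p under 0.05). FABP4 had an edgeR adjusted p of 0.231, 0.296 and 0.0885 without treated replicate 1, 2 and 3. Genes called were 124 with TMM, 193 with no count minimum, 4 with DESeq2, 0 with all expected counts, and 9, 92 and 1 without treated replicate 1, 2 and 3. The log2 difference of CD36 ran from -0.49 to 0.02 and that of FASN from -0.61 to 1.24 when 1 treated library was left out. With all expected counts FASN was at -1.64 and PLIN1 at -0.14. From deposited FPKM, which divides by length, the FABP5 share in the control library was 20.7%, and the HSL shares were 7.60%, 8.47% and 14.1% in the control library and treated libraries 1 and 3. The causes were not tested beyond what each alternative changes by construction. No paired analysis was possible because there is 1 control library, so the groups share fewer than 2 replicate numbers. The 133809 named-gene counts of treated library 2 limit every value from it.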
